A study of Homo sapiens with 66 samples.

Results

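The KCTD genes code for small proteins that share a BTB-like tetramerization domain. Many of them hold a substrate for the CUL3 ubiquitin ligase. KCTD11 and KCTD21 are known as suppressors of Hedgehog signalling, KCTD7 is mutated in a progressive myoclonus epilepsy, and other relatives act on small GTPases, G proteins or receptors. The reading frames of KCTD11 and KCTD21 each lie in a single exon, whereas most relatives are spliced.

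The values below are those of 10 KCTD genes (KCTD2, KCTD3, KCTD5, KCTD7, KCTD9, KCTD10, KCTD11, KCTD12, KCTD15 and KCTD21), matched by symbol among 58051 genes in 66 RNA-seq libraries. These are 10 of the 21 genes whose symbol is KCTD and a number. They were chosen by their log2 fold changes in the auxin comparisons, which were already known. Their values in those comparisons are therefore a description and carry no p-value. A call is used as a label only. It stands for an adjusted p under 0.05 (edgeR quasi-likelihood test, Benjamini-Hochberg over all genes tested) together with a ratio of 1.3 or more, or of 0.7 or less. Of the 10 genes, 9 passed the filter on low values (over 1 CPM, counts scaled to a common library size, in more than 5% of the 60 libraries without actinomycin D). KCTD12 did not pass.

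All libraries came from DLD-1, a human colorectal cancer cell line. In 6 derived lines, both alleles of 1 gene were fused to a degron (AID) through which auxin brings about breakdown of the protein, and the cells also carried the plant receptor TIR1 that this breakdown needs. The lines were AID-NeonGreen-TPR, NUP153-NeonGreen-AID, NUP50-NeonGreen-AID, GAP1-NeonGreen-AID (RANGAP1), AID-FLAG-NXF1 and AID-HA-GANP1. TPR, NUP153 and NUP50 are proteins of the nuclear basket of the pore, RANGAP1 is the GTPase-activating protein of Ran, NXF1 is the main mRNA export receptor, and GANP is the scaffold of the TREX-2 mRNA export complex. The 22 groups held 3 libraries each. Auxin at 1 mM was given for 2 h to AID-NeonGreen-TPR, NUP153-NeonGreen-AID, GAP1-NeonGreen-AID, AID-FLAG-NXF1 and the original DLD-1 cells, for 3 h to NUP50-NeonGreen-AID and AID-HA-GANP1, for 8 h to NUP153-NeonGreen-AID and GAP1-NeonGreen-AID, and for 9 h to NUP50-NeonGreen-AID. AID-NeonGreen-TPR had a further set of libraries labelled old, with untreated cells and auxin for 2 h and 8 h. It also had cells given actinomycin D (ActD, a transcription inhibitor) for 2 h with and without auxin. Each auxin group was compared with the untreated cells of its own line and label set. The study's methods call the 3 libraries of a group biological replicates, and the labels number them without saying how they were grown.

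Checks of the libraries come first. Total counts ranged from 18943661 to 55411411 per library. Of 10 epithelial markers, 9 had a median above 1 CPM (all but CEACAM5), and none of 8 markers of other cell types did. The mRNA of the tagged protein itself was not called in its own line in any of the 11 comparisons, which is no check of the protein. CYP1A1, which responds to indole compounds, was called higher in 9 of those 11 comparisons, the exceptions being NUP153 at 8 h and NUP50 at 9 h. In original DLD-1 cells it went the other way, with a mean of 188 CPM under the label untreated and 13.0 under the label auxin (log2 fold change -3.84). Directions in DLD-1 are therefore given for libraries as labelled. In the old set of the TPR line, the replicate 2 library labelled auxin 2 h correlated more with the libraries labelled 8 h (mean Pearson r 0.505 over 2000 variable genes) than with its own group (-0.366). The replicate 2 library labelled 8 h had a mean r of 0.211 with the 2 h group and of -0.411 with its own. Both were kept as labelled, and values without 1 of them are given for some of the members only. The medians and shares by exon number, the gene lists and the likeness ranking use all libraries as labelled. Without the replicate 2 library labelled 2 h, 48 genes were called higher and 80 lower at 2 h, in place of 26 and 55.

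The 66 libraries also appear to have been counted in different ways. The setting is not given for any library and was read from the counts. In 33 of them (plain TPR, RANGAP1, NXF1, GANP and DLD-1) reads on overlapping genes appeared to count for both genes. In the other 33 (old TPR, ActD, NUP153 and NUP50) such reads appeared to count for neither. The non-coding gene ENSG00000263171, antisense within KCTD11, had 53 to 235 counts in the first 33 and 0 in the others. A difference in overlap setting and one in strand setting cannot be told apart by this gene. Below, overlaps counted and overlaps not counted stand for these 2 sets of libraries. The median of KCTD11 over untreated libraries was 18.9 CPM in the former and 18.6 in the latter. That of KCTD7 was 42.5 and 3.70, and that of KCTD2 59.4 and 36.0. Levels of KCTD7, KCTD2 and KCTD21 are accordingly compared only within a line.

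The genes differ in their structure in GENCODE 44 (GRCh38 coordinates). KCTD11 (chr17:7351889-7354944, plus strand) consists of 1 exon, and so does KCTD12 (chr13:76880175-76886405, minus strand). KCTD21 (chr11:78171249-78188626, minus strand) has 2 exons, of which 1 is coding. KCTD7 (chr7:66628881-66649067, plus strand) has 4 exons, all coding. The others have 5 coding exons (KCTD15), 6 (KCTD2 and KCTD5), 7 (KCTD10), 12 (KCTD9) and 18 (KCTD3). The first coding bases of the genes with 1 coding exon and the exon ends of KCTD7 show this contrast. Read 5′ to 3′ on the coding strand from GRCh38, the reading frames of the former open as follows, with the annotated first codon in capitals.

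KCTD11, chr17:7352826-7352855: ATTtctcctcctcctgtgccctcttcgccc
KCTD21, chr11:78174525-78174554: ATGtccgaccccatcacgctgaacgtcggg
KCTD12, chr13:76886119-76886148: ATGgctctggcggacagcacacgtggatta

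KCTD11 opens with ATT in its canonical transcript, in place of the usual ATG. Its coding sequence runs for 813 bases (271 residues) without a splice site. KCTD7 in contrast is interrupted by 3 introns of 4066, 4808 and 424 bases, and the windows below hold the last 10 exon bases and the first 10 intron bases, with the GT at the start of each intron in capitals.

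KCTD7 intron 1, chr7:66629199-66629218: gccacaggagGTacccgggc
KCTD7 intron 2, chr7:66633435-66633454: cacactttggGTatgtctct
KCTD7 intron 3, chr7:66638422-66638441: tattacaaagGTgagggtca

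The canonical transcript of KCTD11 was 59.0% G and C, the highest of the 10 genes, beside a median of 48.9% over 13137 tested protein-coding genes and of 51.3% over the 731 of those with 1 coding exon. KCTD21 stood at 52.1%, KCTD7 at 50.1% and KCTD9, the lowest, at 38.9%.

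Levels between genes were set side by side per kilobase of merged exons in untreated DLD-1 cells (n = 3, mean ± SD). KCTD3, a partner of the HCN3 channel, was the highest with 18.3 ± 0.486 CPM per kilobase. KCTD9 followed with 15.7 ± 1.16, KCTD5 with 13.5 ± 1.04 and KCTD2 with 10.9 ± 0.775. The KCTD2 value may include reads shared with the overlapping ATP5PD. Its median over untreated libraries was 59.4 CPM where overlaps were counted, as here, and 36.0 where they were not. KCTD11 (5.93 ± 0.285) and KCTD7 (5.79 ± 0.147) did not differ beyond their spread, and the KCTD7 value rests on reads that may be shared, as described below. KCTD10 had 3.80 ± 0.146, KCTD15 1.78 ± 0.0999 and KCTD21 1.02 ± 0.301. KCTD12, an auxiliary subunit of GABA-B receptors, had a count in 11 of 66 libraries and never more than 2, so no comparison was detectable at this depth.

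KCTD11 was lower after auxin in the lines tagged at TPR, NXF1 and GANP. In the plain TPR libraries it had 20.6, 24.9 and 18.2 CPM in untreated cells and 10.0, 9.20 and 10.9 after 2 h of auxin. The groups did not overlap, and the log2 fold change was -1.08 ± 0.13 (SE), a level 2.12-fold lower. KCTD11 was the only member called there, beside 0.511% of all 17812 genes tested (0.107% higher, 0.404% lower, which is 19 and 72 genes). With the replicate number as a block it was again the only member called, among 122 genes higher and 294 lower.

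In the old TPR set KCTD11 had 17.0, 19.7 and 17.3 CPM in untreated cells. It had 7.76, 4.36 and 8.97 in the libraries labelled 2 h and 5.48, 7.12 and 6.05 in those labelled 8 h. All 6 auxin libraries lay below the 3 untreated ones. At 2 h the log2 fold change was -1.36 ± 0.25, and no member was called (0.455% of all genes were, 0.146% higher and 0.309% lower). It was -1.10 and called once the replicate 2 library that resembled the 8 h group was left out. It was called as well without replicate 3 (-1.58). At 8 h the log2 fold change was -1.54 ± 0.18 and KCTD11 was 1 of 3 members called, beside 3.61% of all genes (1.25% higher, 2.36% lower, which is 223 and 420 genes). That background rests on single libraries: it was 5 genes higher and 0 lower without untreated replicate 2, and 1641 higher and 2097 lower without replicate 2 of the 8 h group. Without replicate 2 of the 8 h group it was -1.68 and called. The call was lost without untreated replicate 2 or without replicate 3 of the 8 h group, with log2 fold changes between -1.68 and -1.45 over the 6 refits.

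In the NXF1 line KCTD11 went from 13.7, 18.1 and 20.9 CPM to 7.29, 7.76 and 9.02 after 2 h. The log2 fold change was -1.15 ± 0.14. In the GANP line it went from 18.8, 22.0 and 18.9 to 6.91, 9.15 and 6.68 after 3 h (log2 fold change -1.41 ± 0.13). The auxin and untreated libraries did not overlap in either line. In both lines 3 members were called, all lower, and they were KCTD5, KCTD11 and KCTD21. The share of all genes called in either direction was 8.16% in the NXF1 line (2.22% higher, 5.93% lower) and 15.5% in the GANP line (3.97% higher, 11.5% lower).

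Where auxin acted on NUP153, NUP50 or RANGAP1, KCTD11 was not called. Its log2 fold changes were 0.05 ± 0.09 and 0.15 ± 0.09 in the NUP153 line at 2 h and 8 h, -0.26 ± 0.12 and 0.00 ± 0.10 in the NUP50 line at 3 h and 9 h, and -0.17 ± 0.11 and 0.04 ± 0.11 in the RANGAP1 line at 2 h and 8 h. In DLD-1 the libraries labelled auxin had 19.3, 19.3 and 18.5 CPM and those labelled untreated 18.0, 19.0 and 17.3 (log2 fold change 0.07 ± 0.06). Differences in fold change between lines were not tested.

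**Figure D1:**
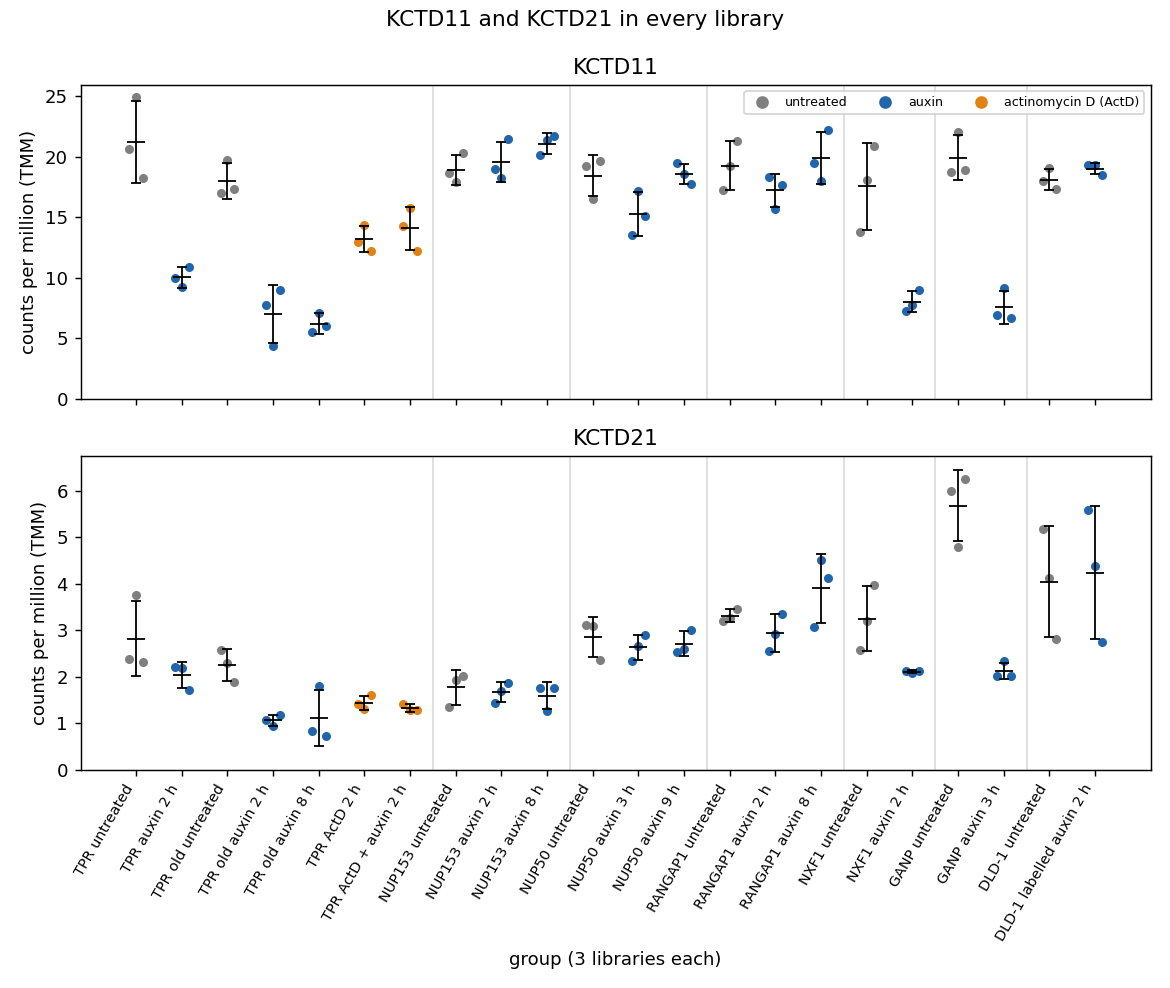
CPM (TMM-scaled) of KCTD11 and KCTD21 in every library, by group. Points are the 3 libraries of a group and bars their mean ± SD. KCTD11 lies at or below 10.9 in every auxin library of the TPR, NXF1 and GANP lines without ActD and at or above 12.2 in every other library.

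ENSG00000263171, which lies within KCTD11, moved with it where overlapping reads counted for both. It had 183 to 209 counts in untreated TPR cells and 69 to 107 after auxin, 120 to 172 and then 53 to 100 in the NXF1 line, and 139 to 198 and then 69 to 96 in the GANP line. Without a stated strand setting the reads of both genes cannot be told apart there. In the old TPR set no read was counted for it and KCTD11 was lower too.

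KCTD21, the paralogue of KCTD11 with 1 coding exon, showed its largest log2 fold change in the GANP line. There it had 6.01, 4.80 and 6.24 CPM in untreated cells and 2.02, 2.33 and 2.02 after auxin. The groups did not overlap (log2 fold change -1.43 ± 0.15, called). In the NXF1 line it went from 2.58, 3.20 and 3.96 to 2.12, 2.07 and 2.13 (-0.65 ± 0.17, called). That call held in 2 of 6 refits with 1 library left out, and was lost without untreated replicate 2 or 3 or without auxin replicate 1 or 2, with log2 fold changes from -0.79 to -0.47.

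In the TPR line KCTD21 was not called. It had 2.38, 3.75 and 2.31 CPM in plain untreated cells and 2.20, 2.18 and 1.72 after auxin (-0.48 ± 0.22). In the old set it had 2.57, 2.29 and 1.88 in untreated cells, 1.07, 0.933 and 1.18 at 2 h (-1.08 ± 0.25) and 0.824, 1.80 and 0.714 at 8 h (-1.01 ± 0.37). The auxin libraries lay below the untreated ones each time. At 8 h the replicate 2 library, which resembled the 2 h group, stood above the others. Without it the log2 fold change was -1.58 and called. In the NUP153, NUP50 and RANGAP1 lines and in DLD-1 the log2 fold changes of KCTD21 lay between -0.18 and 0.23, with no call. These values rest on 19 to 212 counts per library. The overlapping KCTD21-AS1 had 8 to 129 counts. In the GANP line it had 95 to 105 in untreated cells and 55 to 66 after auxin. It had 52 to 85 and then 51 to 88 in the NXF1 line, and 49 to 76 and then 48 to 70 in plain TPR. Reads of both genes cannot be told apart in these 3 sets. In the old TPR set it had 11 to 21 in untreated cells, 16 to 22 at 2 h and 16 to 19 at 8 h.

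KCTD7 was lower in the old TPR set, in the reads that remained where those on overlapping genes were not counted. The median over untreated libraries was 3.70 CPM with this counting and 42.5 with the other. Whether the remaining reads stand for the whole KCTD7 mRNA was not tested. It had 4.34, 4.62 and 3.70 CPM in untreated cells, from 115, 119 and 110 counts. The libraries labelled 2 h had 3.02, 0.760 and 1.41, from 79, 22 and 42 counts. Those labelled 8 h had 1.15, 1.07 and 0.902, from 28, 28 and 24 counts. Every auxin library lay below every untreated one, and the 2 h libraries were spread the most. At 2 h the log2 fold change was -1.29 ± 0.40 and not called. It was -0.93 without replicate 2, the library that resembled the 8 h group and held the lowest value, and -1.95 and called without replicate 1. At 8 h it was -2.02 ± 0.23, a 4.07-fold lower level, and called. Over the 6 refits at 8 h it lay between -2.12 and -1.92, and the call was lost without untreated replicate 2 or without auxin replicate 3. The remaining counts of RABGEF1, the neighbouring gene described below, were lower in the same libraries too. They were 89, 80 and 92 in untreated cells, 57, 64 and 70 at 2 h, and 50, 55 and 77 at 8 h. Whether the lower counts of the 2 genes are related was not tested.

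In the plain TPR libraries KCTD7 had 42.5, 44.9 and 41.2 CPM in untreated cells and 41.6, 41.7 and 41.0 after auxin. The log2 fold change was -0.05 ± 0.07. The count there was close to that of RABGEF1, the next gene on the same strand: over the 33 libraries counted in this way the 2 counts differed by 0.300% to 9.15% of the RABGEF1 count. Where overlaps were not counted KCTD7 had 22 to 187 counts and RABGEF1 50 to 156, against 1038 to 1909 and 1080 to 2029. The exons of the 2 genes do not overlap in GENCODE 44, and the gene models used for counting are not used here. Most of the KCTD7 count in these 33 libraries may thus belong to RABGEF1, and a change of KCTD7 itself is not readable there. The KCTD7 count minus the RABGEF1 count was 0.161 ± 0.639 in untreated GANP cells and -2.91 ± 0.487 after auxin (mean ± SD, n = 3), on the CPM scale but over the total count of the library without TMM scaling. In the NXF1 line it was -0.504 ± 0.213 and -2.35 ± 0.465, and in the plain TPR libraries -0.513 ± 0.566 and -1.01 ± 0.721. In the RANGAP1 line it was -1.01 ± 0.882 in untreated cells, -1.64 ± 0.226 at 2 h and -3.07 ± 0.759 at 8 h. In DLD-1 it was -1.48 ± 0.643 as labelled untreated and -1.50 ± 0.0187 as labelled auxin. The auxin libraries lay below the untreated ones without overlap in the GANP line, the NXF1 line and the RANGAP1 line at 8 h. This difference cannot tell fewer reads of KCTD7 from more reads of RABGEF1, so no change of KCTD7 is read from it.

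In the NUP153 and NUP50 lines, whose libraries also leave out overlaps, KCTD7 had between 2.43 and 4.74 CPM. Its log2 fold changes were 0.17 ± 0.18 and 0.07 ± 0.16 in the NUP153 line and -0.35 ± 0.23 and -0.20 ± 0.17 in the NUP50 line. None was called.

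**Figure D2:**
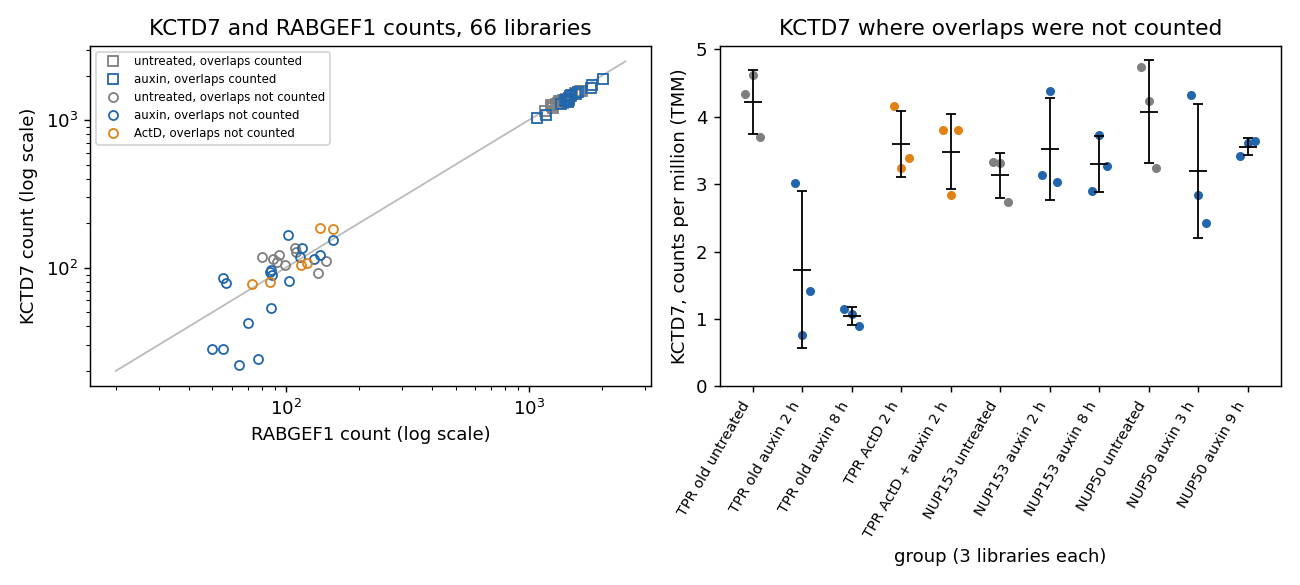
Left, KCTD7 against RABGEF1 counts in 66 libraries on log scales, with the line of equal counts; squares are libraries that counted overlapping genes and lie on the line at 1038 or more KCTD7 counts. Right, KCTD7 CPM in the 33 libraries that did not (points, with mean ± SD of 3), where the 8 h auxin libraries of the old TPR set sit between 0.902 and 1.15.

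KCTD5 helps to degrade G protein beta-gamma subunits and is a close relative of KCTD2. It was called lower in the NXF1 line, from 51.7, 51.6 and 51.4 CPM to 32.9, 32.6 and 35.0 (log2 fold change -0.64 ± 0.05). It was called lower in the GANP line as well, from 49.3, 49.1 and 49.95 to 30.9, 29.4 and 30.3 (-0.73 ± 0.07). Neither pair of groups overlapped, and both calls held in all 6 refits with 1 library left out. KCTD5 has 6 coding exons. In the TPR line it was not called, with log2 fold changes of -0.11 ± 0.07 in the plain libraries and of -0.00 ± 0.12 and -0.05 ± 0.14 in the old set at 2 h and 8 h.

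In the RANGAP1 line no member was called at 2 h (0.589% of all genes were, 0.483% higher and 0.107% lower, which is 86 and 19 genes, or 291 and 177 with the replicate block), and 4 were at 8 h beside 14.9% of all genes (8.26% higher, 6.62% lower). KCTD2 had 73.9, 68.3 and 60.2 CPM in untreated cells and 102, 97.8 and 95.3 after 8 h (log2 fold change 0.54 ± 0.08). KCTD5 went from 44.2, 44.8 and 39.8 to 58.7, 59.7 and 57.4 (0.44 ± 0.07). KCTD15, a repressor of the transcription factor AP-2, went from 16.4, 16.8 and 18.7 to 25.3, 25.6 and 28.2 (0.60 ± 0.08). These 3 were called higher.

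KCTD10, an adaptor for turnover of the GTPase RhoA, was called lower, from 32.2, 38.4 and 44.2 to 20.8, 21.9 and 24.4 (-0.78 ± 0.11). None of these 4 pairs of groups overlapped, and each call held in all 6 refits. KCTD11 (0.04) and KCTD21 (0.23) were not called at that time. Reads of KCTD2 and of the overlapping ATP5PD appeared to count for both in this line. ATP5PD had 2762 to 3167 counts in untreated cells and 2808 to 3552 at 8 h.

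**Figure D3:**
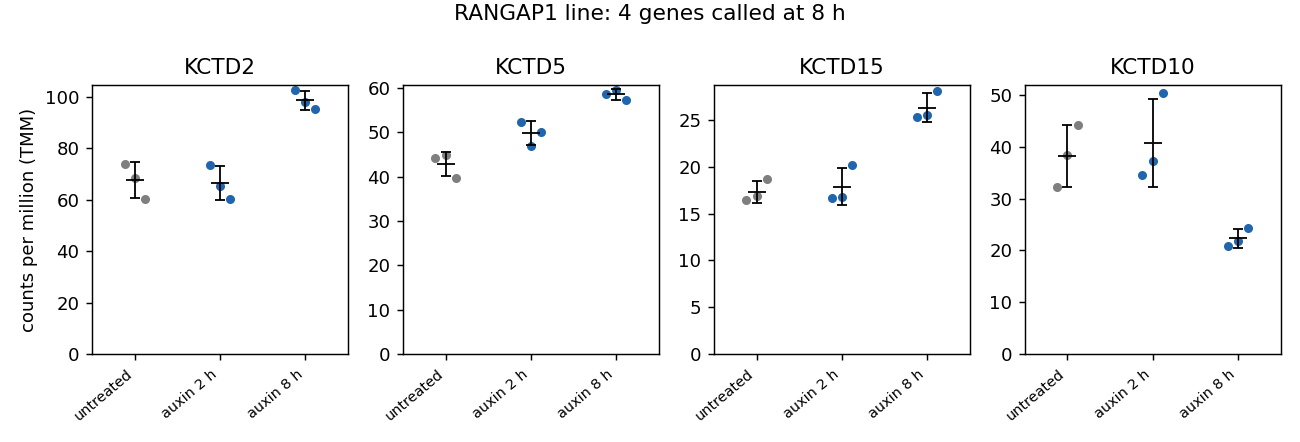
CPM (TMM-scaled) of KCTD2, KCTD5, KCTD15 and KCTD10 in untreated RANGAP1 cells and after 2 h and 8 h of auxin; points are libraries and bars mean ± SD of 3. The 8 h libraries lie above the untreated ones for the first 3 genes and below them for KCTD10.

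KCTD15 also stood higher after long auxin treatment in the NUP153 and NUP50 lines without being called. It had 32.5, 31.6 and 28.1 CPM in untreated NUP153 cells and 40.2, 38.6 and 40.9 at 8 h (0.38 ± 0.08, just under the fold limit). It had 14.3, 10.3 and 12.5 in untreated NUP50 cells and 16.8, 15.7 and 17.6 at 9 h (0.42 ± 0.12). In the old TPR set at 8 h it had 27.6, 20.5 and 30.0 CPM beside 33.6, 27.9 and 26.1 in untreated cells (-0.18 ± 0.16, overlapping). In the GANP line it was lower without a call (-0.48 ± 0.10, short of the limit of 0.7). KCTD10 in the NXF1 line was a like case, with 45.2, 42.7 and 42.1 CPM in untreated cells and 32.0, 32.0 and 33.6 after auxin (-0.44 ± 0.06). A fold of 1.3 in both directions calls both. No member was called in the NUP153 line, where 0.0393% of all genes were at 2 h (0.0337% higher, 0.00561% lower) and 1.34% at 8 h (0.926% higher, 0.41% lower). With the replicate number as a block, which paired the libraries at 2 h, 109 genes were higher and 25 lower there in place of 6 and 1, none of them a member. None was called in the NUP50 line, where 0.219% were at 3 h (0.208% higher, 0.0112% lower) and 0.371% at 9 h (0.225% higher, 0.146% lower). None was called in DLD-1 either, where 0.0561% were, all lower.

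KCTD9, which carries pentapeptide repeats, was the member called higher in the old TPR set at 8 h. It had 45.1, 55.8 and 54.3 CPM in untreated cells and 87.6, 69.9 and 82.0 in the libraries labelled 8 h (0.61 ± 0.13). The libraries labelled 2 h had 59.2, 95.6 and 65.9 (0.50 ± 0.18, not called). The replicate 2 library was the highest of those labelled 2 h and the lowest of those labelled 8 h. The 8 h call held in 1 of 6 refits, the one without auxin replicate 2 (0.67). In the plain TPR libraries KCTD9 had a log2 fold change of 0.14 ± 0.06. KCTD3 was called in no comparison, with log2 fold changes from -0.22 to 0.28.

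**Figure D4:**
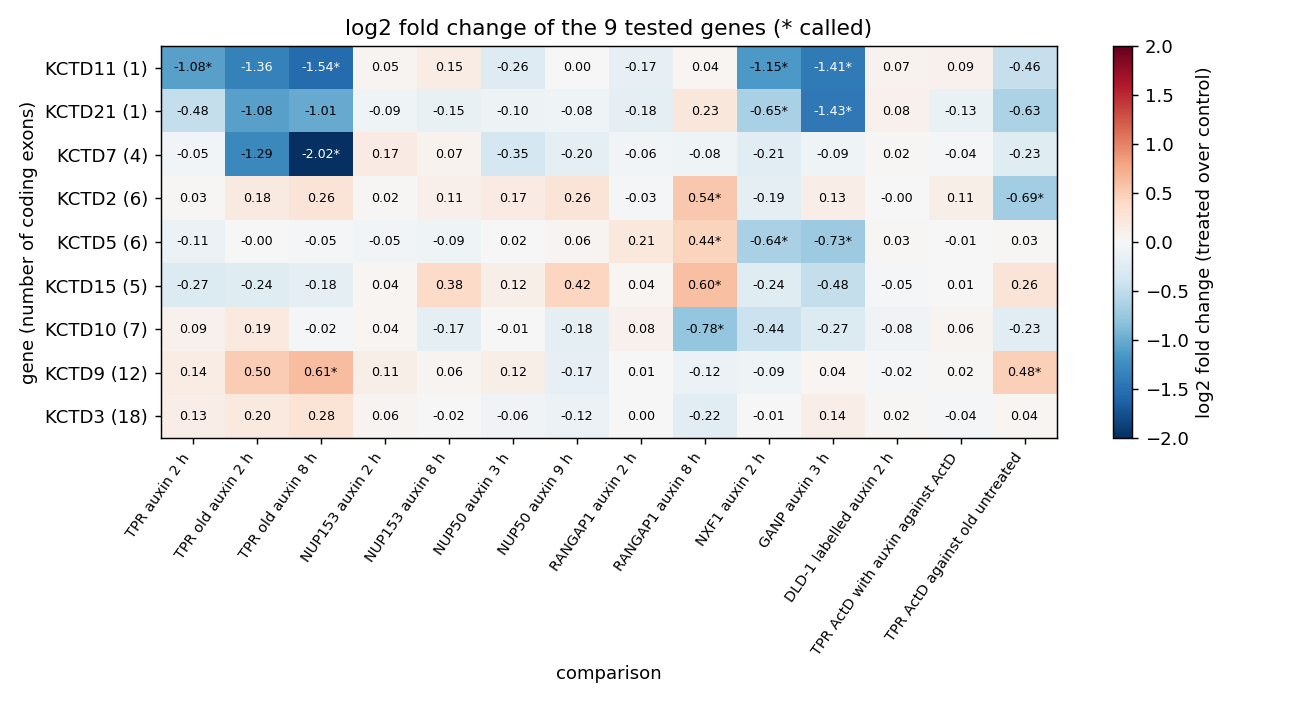
log2 fold changes (treated over control) of the 9 tested genes in 14 comparisons, with the number of coding exons after each name and an asterisk at each call. KCTD11 is called in the plain TPR, old TPR 8 h, NXF1 and GANP columns, KCTD21 in the NXF1 and GANP columns, and KCTD7 in the old TPR 8 h column (-2.02).

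The members were then set side by side by exon number. The 2 tested members with 1 coding exon, KCTD11 and KCTD21, had a median log2 fold change of -0.78 in the plain TPR libraries, and the 7 others one of 0.03. Over all tested protein-coding genes the medians were -0.22 for the 731 with 1 coding exon and 0.02 for the 12406 with more. In the old TPR set at 2 h the members' medians were -1.22 and 0.18, beside -0.39 and 0.04 over all such genes. At 8 h they were -1.27 and -0.02, beside -0.54 and 0.03.

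In the NXF1 line the medians of the members were -0.90 and -0.21, beside -0.25 and 0.01 over all such genes. In the GANP line they were -1.42 and -0.09, beside -0.47 and 0.03. The classes did not separate the members fully: KCTD7 stood at -2.02 in the old set at 8 h, and KCTD5 (-0.64) beside KCTD21 (-0.65) in the NXF1 line. In the NUP153, NUP50 and RANGAP1 lines at 2 h or 3 h the medians of KCTD11 and KCTD21 lay between -0.18 and -0.02.

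Genes with 1 coding exon were called lower more often than other protein-coding genes in the same comparisons, as a description over all genes. The shares were 5.34% and 0.218% in the plain TPR libraries, 4.24% and 0.169% in the old set at 2 h, and 15.5% and 1.89% at 8 h. They were 23.1% and 5.67% in the NXF1 line, and 45.6% and 9.99% in the GANP line. In the RANGAP1 line at 8 h they were 12.7% and 4.4%, and neither KCTD11 nor KCTD21 was among those called. Genes with 1 coding exon had the larger share in other comparisons as well: 28.0% and 10.7% with ActD alone, 1.5% and 0.0887% in the NUP50 line at 9 h, and 1.5% and 0.427% in the NUP153 line at 8 h. At 2 h in the NUP153 line the shares were 0.0% and 0.00806%. The shares called higher were 5.88% and 3.48% in the GANP line. At 8 h they were 2.46% and 0.653% in the NUP153 line and 10.1% and 9.33% in the RANGAP1 line. Genes with 1 coding exon had the smaller share called higher in the NXF1 line (0.958% and 1.51%) and in plain TPR (0.0% and 0.129%). The same held in the old set at 8 h (0.137% and 1.7%) and with ActD alone (4.1% and 11.7%).

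**Figure D5:**
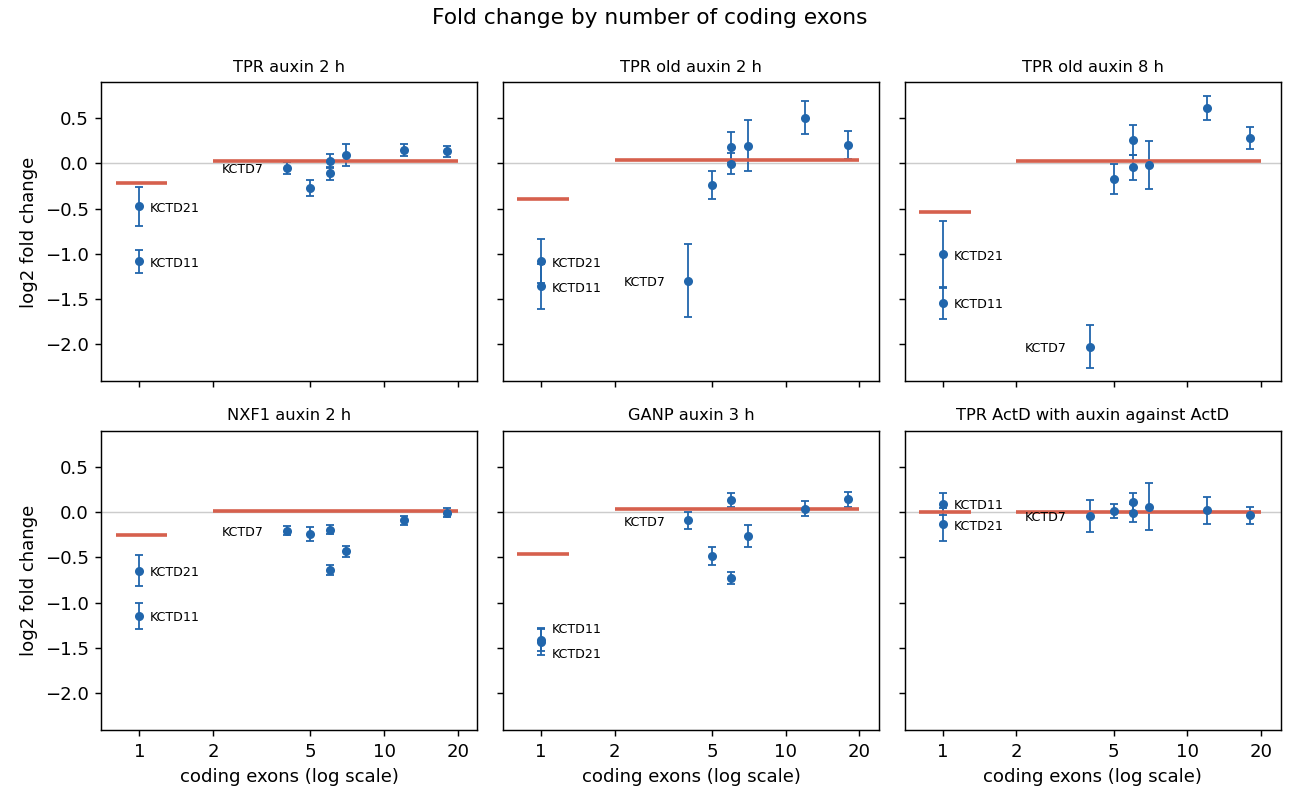
log2 fold change of the 9 tested genes (points, ± SE) against their number of coding exons (log scale) in 6 comparisons. Red lines are the medians of all tested protein-coding genes with 1 and with more coding exons. KCTD11 and KCTD21 lie below the red line for 1 coding exon in the TPR, NXF1 and GANP panels, and at 0.09 and -0.13 with ActD.

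Cells given ActD served to ask whether auxin changed the members once transcription was blocked. The comparison of ActD with auxin against ActD alone shares no library with those above, so its adjusted p-values are given (edgeR). KCTD11 had 13.0, 14.4 and 12.2 CPM with ActD and 14.3, 15.8 and 12.2 with ActD and auxin. The groups overlapped, with a log2 fold change of 0.09 ± 0.12 (adjusted p = 1.0). KCTD21 went from 1.4, 1.29 and 1.60 to 1.41, 1.27 and 1.28 (-0.13 ± 0.18, adjusted p = 1.0). KCTD7 went from 4.16, 3.24 and 3.39 to 3.81, 2.84 and 3.81 (-0.04 ± 0.18, adjusted p = 1.0).

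All 9 tested members had overlapping groups and log2 fold changes between -0.13 and 0.11. No gene at all was called by edgeR (0.0% of 17812) or by DESeq2. The number at an unadjusted p under 0.05 was 78 of 17812, a smaller share than 0.05. This fit left out the replicate numbers, which paired these libraries (correlations of deviations from the group means 0.61, 0.827 and 0.913). Its adjusted p-values do not show that auxin had no effect. With the replicate number as a block 3 genes were called higher and 2 lower, none of them a member. Whether the auxin effect with ActD differs from that without it was not tested.

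ActD alone was compared with the untreated cells of the old set. The ActD libraries carry no old label, so this comparison crosses the label sets; it was made because both were counted in the same way. These controls also served the auxin comparisons by which the members were chosen, so the members get no p-value here either. Nor do the list genes below, which were named by their calls. Of all genes 21.1% were called (8.79% higher, 12.3% lower). With transcription blocked, higher and lower are relative to the other RNAs of a library after TMM scaling, and are not absolute amounts. With library sizes alone KCTD9 was not called, and KCTD11 and KCTD21 were called lower beside KCTD2. KCTD2 was called lower, from 40.7, 34.0 and 36.5 CPM to 23.4, 22.4 and 23.4 (log2 fold change -0.69 ± 0.11). KCTD9 was called higher, from 45.1, 55.8 and 54.3 to 64.9, 63.1 and 88.3 (0.48 ± 0.15). The KCTD9 call held in 1 of 6 refits, the one without ActD replicate 2, with log2 fold changes from 0.29 to 0.58.

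KCTD11 had a log2 fold change of -0.46 ± 0.13 with ActD and KCTD21 one of -0.63 ± 0.22, and neither was called. The 3 ActD libraries lay below the 3 untreated ones for both. For KCTD7 the value was -0.23 ± 0.19 and the groups overlapped. The ActD libraries thus stood at 12.2 to 14.4 CPM for KCTD11, above the 4.36 to 8.97 of the old auxin 2 h libraries, a difference that was not tested.

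Other KCTD genes and near relatives (TNFAIP1, SHKBP1 and KCNRG) formed a list of 14, of which 10 were tested. None was called in the TPR, NUP153 or NUP50 lines, in DLD-1 or in the RANGAP1 line at 2 h. KCTD13, which like TNFAIP1 acts on RhoA, was called lower in the NXF1 line (-0.71 ± 0.14) and in the GANP line (-0.57 ± 0.13). In the GANP line KCTD6 (-0.57 ± 0.12), KCTD14 (-0.90 ± 0.15), TNFAIP1 (-0.52 ± 0.09) and KCNRG (-1.004 ± 0.13) were called lower too, and the list median was -0.38 beside 0.01 over all genes. The 5 called lower of 10 stand beside 11.5% of all genes in the GANP line, and the 1 of 10 beside 5.93% in the NXF1 line.

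At 8 h in the RANGAP1 line KCTD6 (0.56), KCTD14 (0.42) and KCTD18 (0.78) were called higher and KCNRG lower (-0.65), beside 8.26% and 6.62% of all genes. With ActD alone KCTD6 was called lower (-0.60 ± 0.18), beside 12.3% of all genes.

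The CUL3 ligase list held 26 genes, of which 25 were tested. It had 4 genes called lower and none higher in the NXF1 line, and 6 lower and none higher in the GANP line, beside 5.93% and 11.5% of all genes called lower. The median was -0.09 beside 0.01 over all genes in the former and 0.04 beside 0.01 in the latter. The genes called in these lines were substrate adaptors of the BTB family. KLHL21, an adaptor for Aurora B, had log2 fold changes of -1.72 ± 0.08 in the NXF1 line and -1.68 ± 0.08 in the GANP line, and was the 1 list gene called in the old TPR set at 2 h (-0.78 ± 0.13). KBTBD6 was called lower in the GANP line (-1.72 ± 0.11) and with KBTBD7 and KLHL9 in the old TPR set at 8 h (-1.49 ± 0.26). It was called higher in the NUP153 line at 8 h (0.48 ± 0.10).

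No gene of the CUL3 list was called in the plain TPR libraries, in the NUP153 and RANGAP1 lines at 2 h, or in DLD-1. KLHL9 was the 1 called, lower, in the NUP50 line at 3 h and at 9 h, and KBTBD8 the 1 called, higher, in the RANGAP1 line at 8 h. With ActD alone 7 were called higher and KLHL21 lower (-0.75 ± 0.15), with a list median of 0.28, beside 8.79% of all genes called higher and 12.3% lower.

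Of 16 Hedgehog pathway genes 13 were tested. None was called in the TPR, NUP153, NUP50 or NXF1 lines, in DLD-1 or in the RANGAP1 line at 2 h. In the GANP line the ligand SHH was called lower (-0.65). In the RANGAP1 line at 8 h GLI2 was called higher (1.5), and GLI3 (-1.18) and HHIP (-0.78) were among those called lower. With ActD alone 5 were called lower, among them the receptor PTCH1 (-1.08 ± 0.31), with a list median of -0.24, beside 12.3% of all genes called lower.

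Of 7 known partners of KCTD proteins 6 were tested. TFAP2C, an AP-2 factor, was called lower in the NXF1 (-0.96 ± 0.11), GANP (-0.67 ± 0.11) and RANGAP1 8 h (-1.01 ± 0.12) comparisons. It was also called lower with ActD alone (-2.13 ± 0.12). HCN3, the channel that KCTD3 binds, was called lower in the old TPR set at 8 h (-1.35 ± 0.30), in the NXF1 line (-0.75 ± 0.17) and in the GANP line (-1.09 ± 0.20). In the GANP line 3 of the 6 partners were called lower, beside 11.5% of all genes, and TFAP2A higher (0.59 ± 0.12). With ActD alone TFAP2A was called lower (-0.70 ± 0.20), beside 12.3% of all genes.

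The genes most like KCTD11 were sought among 2636 genes with a mean of 50 or more counts and a call in at least 1 of 8 auxin comparisons that share no library. Likeness was the Pearson r of the 8 log2 fold changes, a description over 8 points that differ in line, counting and time. The 5 highest were ZNF552 (r = 0.989), ZNF112 (0.986), ZNF517 (0.982), HOXA11-AS (0.978) and PPP1R3D (0.977). Of these the glycogen-targeting phosphatase subunit PPP1R3D has 1 coding exon, and the zinc finger genes have 3 or 4. ZNF552 had log2 fold changes of -1.35 in the plain TPR libraries, -1.36 in the NXF1 line and -1.93 in the GANP line.

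For KCTD7 the 5 highest were ARMCX3-AS1 (r = 0.912), ENSG00000254706 (0.903), UGT1A8 (0.892), UGT1A10 (0.887) and CMKLR2 (0.884). Their values in the old TPR set at 2 h ran from -3.20 to -1.83. The log2 fold change of KCTD7 itself was -1.29 there and between -0.35 and 0.17 at the other 7 points, 5 of which come from libraries where its count may be that of RABGEF1, and no likeness is read from these r values. UGT1A8 and UGT1A10 share exons with each other, so counts of these 2 genes depend on how overlapping reads were counted, as those of KCTD7 do.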

How the data were processed

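RNA was sequenced in 66 libraries of DLD-1 cells (ribosomal RNA depleted, TruSeq kit). The authors aligned reads to GRCh38 and deposited raw counts per gene, with no normalization. The submitters' processing notes list CASAVA 1.8.2, STAR 2.6.1c and featureCounts 1.5.2. Whether counting used strand or overlapping genes is not given in the sources used here. From the deposited counts, each comparison of 3 libraries with 3 was fitted alone with edgeR 4.0.16 (R 4.3.3, TMM scaling, quasi-likelihood test) over 17812 genes, to which 99.76% or more of the counts in any library belonged. The members and lists were chosen with earlier results of these data known. Named genes were the members, list genes called in at least 2 comparisons without ActD or in 1 with it (mean of 50 or more counts, at most 6 with the largest changes, besides all called KCTD relatives, which were named after their values were seen, as were other list genes given in small counts), and the 5 genes most like KCTD11 and KCTD7. The values of 1 gene that this rule names are not reported here. Levels are CPM (counts over the TMM-scaled library size). Genes, exons and lengths came from GENCODE release 44, in which 56948 of 58051 identifiers were found. Alternatives were other scalings, DESeq2 1.42.0, other filters, a fold of 1.3 in both directions, 1 fit over 60 libraries, a replicate block, and each library left out in turn. The fits were tested on simulated data. Replicate numbers paired the libraries (all 3 correlations of deviations over 0.1) in 7 of 14 comparisons: TPR, NUP153 and RANGAP1 at 2 h, RANGAP1 at 8 h, NXF1, GANP, and ActD with auxin against ActD.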

Additional observations from a re-analysis of the deposited data

Results flagged for a closer look

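For KCTD5 and KCTD9 the auxin libraries lay above all untreated ones in 1 line and below them in another. Neither difference between lines was tested, and not all of these values were called. Groups without overlap were counted among the 9 tested members. There were 8 such members in the NXF1 line, 4 in the GANP line, 6 in plain TPR and 1 in RANGAP1 at 2 h. At 8 h there were 5 in the old TPR set and 6 in the RANGAP1 line. There were 4 in the old TPR set at 2 h, 4 in the NUP50 line at 9 h and 4 with ActD alone. The NUP153 line had 2 at 2 h and 2 at 8 h. The NUP50 line at 3 h, DLD-1 and ActD with auxin against ActD had 0. The share of all genes without overlap was not computed, so these counts are not read as a result about the members. The shares below are of genes called. For KCTD5 at 2 h or 3 h every auxin library lay below every untreated one in the NXF1 (log2 fold change -0.64, called) and GANP (-0.73, called) lines and in the plain TPR libraries (-0.11, not called), and above them in the RANGAP1 line at 2 h (0.21, not called). In the old TPR set at 2 h the groups overlapped (-0.00). The share of all genes called in these comparisons was 8.16% (NXF1), 15.5% (GANP), 0.511% (plain TPR) and 0.589% (RANGAP1 at 2 h). For KCTD9 at 8 h the auxin libraries lay above the untreated ones in the old TPR set (0.61, called, beside 3.61% of all genes) and below them in the RANGAP1 line (-0.12, not called, beside 14.9%).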

How the results depend on the processing

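Of 224 refits of the 16 member calls, 202 kept the call and 22 lost it (18 of them with 1 library left out), and in none did the direction turn. The number of members called in the old TPR set at 2 h was 0, and became 3 with DESeq2 or without a filter on low counts (KCTD7, KCTD11 and KCTD21), 4 with 1 fit over 60 libraries and 1 with the replicate block (KCTD11). It ran from 0 to 1 with 1 library left out. At 8 h it was 3 and ran from 0 to 5 with 1 library left out. In the NUP153 line at 8 h 1 member (KCTD15) was called with library sizes alone. In the NUP50 line at 9 h 1 (KCTD15) was called with DESeq2, without a filter or with the replicate block, and 0 to 1 with 1 library left out. For ActD against untreated cells 4 were called in place of 2 with the plain untreated libraries as control, KCTD7 (log2 fold change -3.62) and KCTD2 among them; those libraries counted overlapping genes, the ActD ones did not. With library sizes alone 3 were called there (KCTD2, KCTD11 and KCTD21), and KCTD9 was not. The number ran from 1 to 2 with 1 library left out. For ActD with auxin against ActD the replicate block moved the number of all genes called from 0 to 5. The block changed the number of members called in no other comparison, and in the 7 where the numbers paired the libraries it changed no member call. Counting all exons in place of coding exons left KCTD11 alone in the class with 1 exon, with medians of -1.08 (plain TPR) and -1.15 (NXF1), and moved the spliced members' medians to -0.18 (GANP), 0.075 (RANGAP1 at 8 h, from -0.08) and -0.10 (ActD, from 0.03). With library sizes alone and classes by coding exons, the medians of the 7 members with more than 1 were -0.26 (NXF1, from -0.21) and -0.20 (GANP, from -0.09). That scaling moved the median of all genes by -0.11 in the GANP line and by less elsewhere. A fold of 1.3 in both directions added KCTD10 in the NXF1 line and KCTD15 in the GANP line, and took all genes called lower there from 1057 to 1582 and from 2052 to 2711. With 1 library left out, all genes called in the plain TPR libraries ran from 4 to 17 higher and from 14 to 45 lower, in place of 19 and 72. In the old set at 8 h the replicate block gave 645 higher and 1037 lower in place of 223 and 420. The depth limits KCTD12, which could not be compared.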
